A study of Mus musculus with 4 samples.

Results

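The chaperone genes of the HSP, DNAJ and CCT families were described in mouse small cell lung cancer cells sorted by an autophagy reporter. Members were taken by name: every symbol of the deposited table that begins with Hsp90, with Hsp followed by a, b, d, e or h and a number, with Dnaj followed by a, b or c and a number, or with Cct and a number, together with Tcp1. The rule found 74 of 17746 symbols, namely 40 Dnaj genes, 26 Hsp genes and 8 CCT genes including Tcp1. Of these, 5 are pseudogenes or related copies by name, among them Dnajb6-ps, Dnajc19-ps, Hspa9-ps1 and Hspd1-ps3. No measured value entered the choice.

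The tumours came from RPΔG mice, which carry the GFP-LC3-RFP-LC3ΔG knock-in reporter together with Rb1 fl/fl and Trp53 fl/fl alleles, and both groups share this genotype. The GFP-LC3 moiety is degraded by autophagy while the RFP-LC3ΔG moiety is not, so GFP is read against RFP within a cell. Lung tumours were dissociated, red blood cells were removed, and live (DAPI-negative), EpCAM-positive, RFP-positive cells were split by FACS into GFP-positive cells (2 libraries) and GFP-negative cells (2 libraries). The sample titles and the design text assign high autophagic flux to opposite groups, so the groups are named by GFP alone and no flux direction is drawn. The labels name no age, sex or Cre driver. They do not say that the libraries came from separate animals, so p-values measure the spread between these libraries, which may be technical.

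Chaperones hold unfolded protein until it folds, is handed on or is degraded. HSP70 proteins bind exposed hydrophobic stretches in an ATP-driven cycle that J-domain proteins (DNAJ) start by delivering clients, HSP90 proteins finish the folding of kinases and receptors, and the ring-shaped TRiC/CCT chaperonin folds actin and tubulin. Each compartment has its own set: Hspa5 and Hsp90b1 in the endoplasmic reticulum (ER), and Hspa9, Hspd1 and Hspe1 in mitochondria. Some cytosolic members are induced by heat shock factor 1 when protein damage or handling stress occurs, whereas ER members are induced by the unfolded protein response. Hspa8 and Hspb8 also take part in delivering proteins for lysosomal degradation.

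The sequences below are those of the stress-inducible members on which the comparison turns, taken from RefSeq on GRCm38.p6, the build that matches the mm10 coordinates of the gene annotation. Promoter windows of 250 bases before a start were found for 56 of the 74 members, with 75 windows because some genes have several starts. Hspa1a and Hspa1b, the stress-inducible cytosolic HSP70 genes, lie on the minus strand of chromosome 17, and their annotated starts are 12918 bases apart. Their promoters are shown because these 2 genes had the lowest fitted changes of all members, and capitals mark a 2-unit heat shock element (GAANNTTC or TTCNNGAA, both strands).
Hspa1a promoter, chr17:34972157-34972406, minus strand: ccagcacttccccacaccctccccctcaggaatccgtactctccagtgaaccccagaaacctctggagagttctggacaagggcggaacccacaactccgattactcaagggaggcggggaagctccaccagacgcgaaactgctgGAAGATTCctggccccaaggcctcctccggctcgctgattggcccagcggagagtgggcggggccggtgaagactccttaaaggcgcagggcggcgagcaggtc
Hspa1b promoter, chr17:34959239-34959488, minus strand: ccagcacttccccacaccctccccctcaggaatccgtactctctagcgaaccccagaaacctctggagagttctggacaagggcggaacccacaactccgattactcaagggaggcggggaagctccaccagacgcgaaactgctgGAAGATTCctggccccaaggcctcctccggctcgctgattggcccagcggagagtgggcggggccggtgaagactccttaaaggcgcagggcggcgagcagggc
The 2 windows were identical at 98.8% of 250 bases, with 3 bases different. The 2-unit element stood in windows of 15 of the 56 matched members, where 14.5% of all 27025 genes with a window had it (12.8% of 32851 windows).

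The stricter, 3-unit form, GAANNTTC followed directly by NNGAA, which contains both 2-unit forms, occurred for 3 of the 56 members, Dnajb6, Hspd1 and Hspe1, and for 0.514% of all genes (0.466% of windows). Hspd1 (minus strand) and Hspe1 (plus strand), the genes of mitochondrial HSP60 and of its lid HSP10, lie head to head on chromosome 1 and share 1 such stretch, shown with 2 overlapping matches in capitals. The ER stress element, CCAAT and CCACG with 9 unspecified bases between them, searched on both strands, occurred for 3 of the 56 members, Dnajc3, Hsp90b1 and Hspa5, and for 0.13% of all genes (0.113% of windows). Its matches are shown for Hspa5 and Hsp90b1, the most abundant ER members, with the matched letters in capitals.
Hspd1 and Hspe1, chr1:55088053-55088082, plus strand: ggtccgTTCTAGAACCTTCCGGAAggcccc
Hspa5, chr2:34772020-34772048, plus strand: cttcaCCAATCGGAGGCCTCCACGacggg
Hsp90b1, first match, chr10:86705633-86705661, minus strand: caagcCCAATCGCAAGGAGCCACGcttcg
Hsp90b1, second match, chr10:86705528-86705556, minus strand: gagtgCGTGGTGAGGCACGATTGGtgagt
These matches describe letters in a window and not measured binding. RefSeq gives Hspd1 starts at 55087932 and 55088243 and an Hspe1 start at 55088148, so the shared stretch lies upstream of Hspe1 and of the first Hspd1 start and inside the span transcribed from the second. The Hspe1 start and the Hspd1 start at 55087932 are 216 bases apart.

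The libraries held 51994432 to 73997175 counts, and GFP-positive library 1 stood apart from the other 3. It had 0 counts for 65.8% of symbols, against 0.727% to 11.5% in the others, and it lay apart on the first principal component (80.9% of variance). The markers of other cells also differed: all 12 macrophage markers were lower in GFP-negative cells by fitted change, 3 of them past the test, and their summed level was 116748 and 68157 CPM (counts scaled to library size) for GFP-positive and 1187 and 21900 CPM for GFP-negative cells. Erythroid markers summed to 45369 and 14332 against 1572 and 5389 CPM (2 of 5 called lower), and hepatocyte markers to 27262 and 159 against 23.5 and 319 CPM (3 of 4 called lower). No member of the other marker lists was called: antibody-secreting B cell (9 genes), T and NK lymphocyte (5, all at 0 counts in GFP-positive library 1), endothelial (4), alveolar type 2 (5), ciliated (6) and neuroendocrine tumour (10). Of the tumour markers, Epcam, the surface protein used in the sort, read 27.7 and 24.3 FPKM (fragments scaled for gene length and depth) in the GFP-positive and 157 and 33.6 FPKM in the GFP-negative libraries. The sum of the 10 neuroendocrine markers was 3300 and 1170 against 5359 and 1469 CPM. In such bulk libraries fewer cells of a type and less RNA per cell cannot be told apart.

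No chaperone gene passed the test between GFP-negative and GFP-positive cells, and most were highly variable among libraries. With edgeR's quasi-likelihood test on the counts (Benjamini-Hochberg adjustment over 16301 genes, threshold 0.05), 0 of the 73 members tested were called, where 0.0982% of all genes were called. At an unadjusted p under 0.05, 1 member stood out, Hspa1a, where 3.1% of all genes did. DESeq2's Wald test called 0 members (0.258% of all genes), and limma on log2 FPKM called 0 with a pseudocount of 1 (0.141%) and with 0.1 (0.258%). The edgeR fit also called 0 members with a replicate block (0.129% of all genes), with no filter (0.0902%), with DESeq2 size factors (0.117%), upper quartile factors (0%) or library totals (0.11%), and over genes with counts in all 4 libraries (0.091%). It called 0 without GFP-positive library 1 (0.00613%), GFP-negative library 1 (0.141%) or GFP-negative library 2 (0.362%). The common biological coefficient of variation was 1.92, so the estimates below carry wide standard errors. Leaving out GFP-positive library 2, which leaves GFP-positive library 1 alone in its group, gave 38 called members of 73, where 52.6% of all genes were called.

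Most fitted changes lay above 0, as they did for all genes. The log2 change of GFP-negative minus GFP-positive cells was above 0 for 48 members and below 0 for 25, with a median of 0.82, while 68.1% of all genes lay above 0 with a median of 0.91. Without GFP-positive library 1 the members' median was 0.47 with 51 above 0, and that of all genes 0.27 with 9498 of 16301 above 0. Over the 42 members with counts in all 4 libraries it was 0.04, with 22 above 0, and over all such genes -0.06. Both GFP-negative libraries exceeded both GFP-positive libraries in CPM for 14 members, where 25.2% of all genes did so. The reverse held for 3 members (Hspa1a, Hspa1b and Hspa8), where 6.63% of all genes did so. In FPKM the same counts were 26 higher (background 31.6%) and 2 lower (background 4.53%), the 2 being Hspa1a and Hspa1b. Read over 73 members, these counts are near the background shares.

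**Figure D1:**
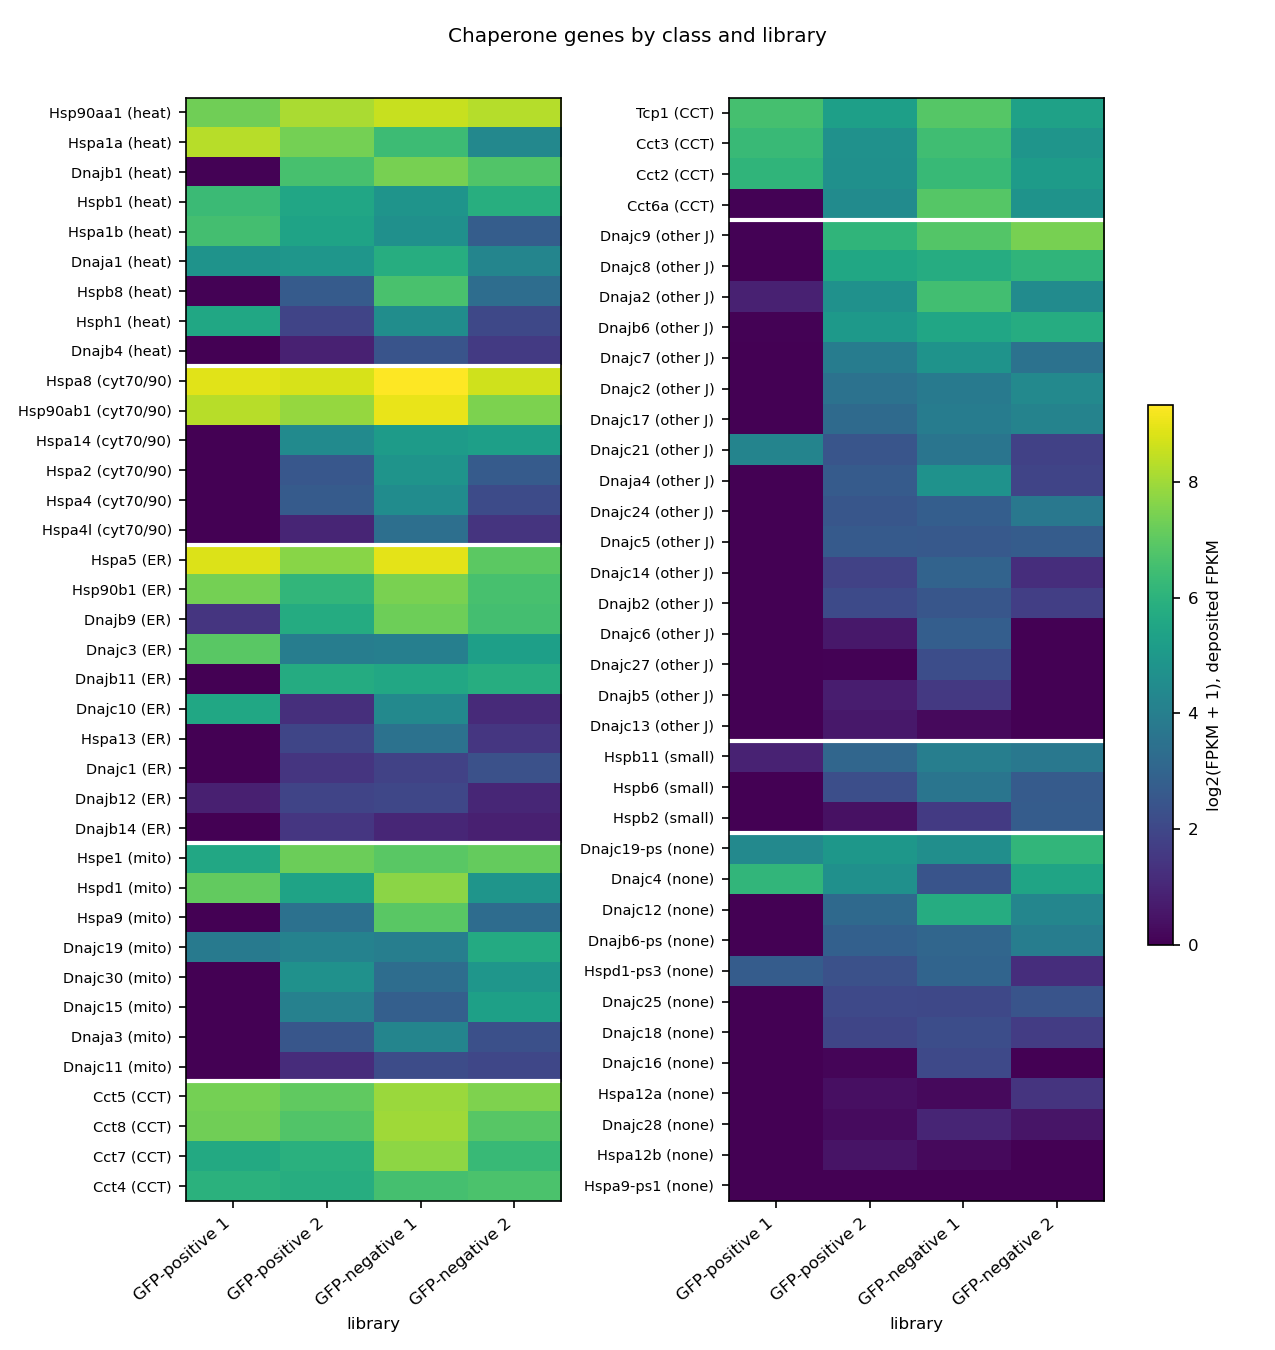
Level of 73 of the 74 chaperone genes (rows, grouped by class) in each library (columns), as log2 of the deposited FPKM plus 1. GFP-positive library 1 is dark for 31 genes at 0 counts, whereas Hspa8, Hsp90ab1 and Hspa5 are bright in all 4 libraries.

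GFP-positive library 1 held counts for fewer chaperones than the others, though for a larger share than for other symbols. In it 31 members (41.9%) were at 0 counts, which allows up to 0.080 CPM for counting error alone, while 0, 0 and 6 members were at 0 in GFP-positive library 2 and GFP-negative libraries 1 and 2. For 26 members it was the one library at 0. Of the 32 members at 10 FPKM or more in each of the other 3 libraries, 10 (31.2%) were under 1 FPKM in it, where 40.5% of all 2575 such genes were. These were Cct6a, Dnaja2, Dnajb1, Dnajb11, Dnajb6, Dnajc2, Dnajc7, Dnajc8, Dnajc9 and Hspa14, of which 8 are J-domain genes. Every fitted change of these genes therefore sets a GFP-positive pair of unequal libraries against the GFP-negative pair.

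Hspa8, the constitutive cytosolic HSP70, was the most abundant chaperone in every library. Chaperones together made up 3297 and 2833 FPKM in the GFP-positive and 5318 and 3081 FPKM in the GFP-negative libraries. Heat-inducible members took 21.8% and 23.5% of that sum in the GFP-positive and 16.2% and 17.4% in the GFP-negative libraries. The constitutive cytosolic HSP70 and HSP90 members took 24.2% and 24.5% against 23.4% and 20.5%. ER members took 23.9% and 14.0% against 17.4% and 13.5%, and mitochondrial members 5.95% and 9.30% against 9.47% and 9.72%. The TRiC/CCT subunits took 20.5% and 16.5% against 22.6% and 19.8%, and the other cytosolic and nuclear J-domain members 0.55% and 8.12% against 8.03% and 12.6%. The heat-inducible and the constitutive cytosolic shares were thus both lower in the 2 GFP-negative libraries, the mitochondrial share was higher, and the ER, TRiC/CCT and other J-domain shares overlapped. Shares within a library depend on each other, so the near absence of other J-domain members in GFP-positive library 1 raises its remaining shares. The mitochondrial share of GFP-positive library 2 (9.30%) was close to that of GFP-negative library 1 (9.47%). The heat-inducible share rested on Hspa1a and Hspa1b: the other 7 members took 9.38% and 16.2% in the GFP-positive and 14.1% and 16.6% in the GFP-negative libraries, a split chosen after seeing the data. The summed level of the 9 members also overlapped, at 718 and 666 against 860 and 536 FPKM. No test was made of shares.

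**Figure D2:**
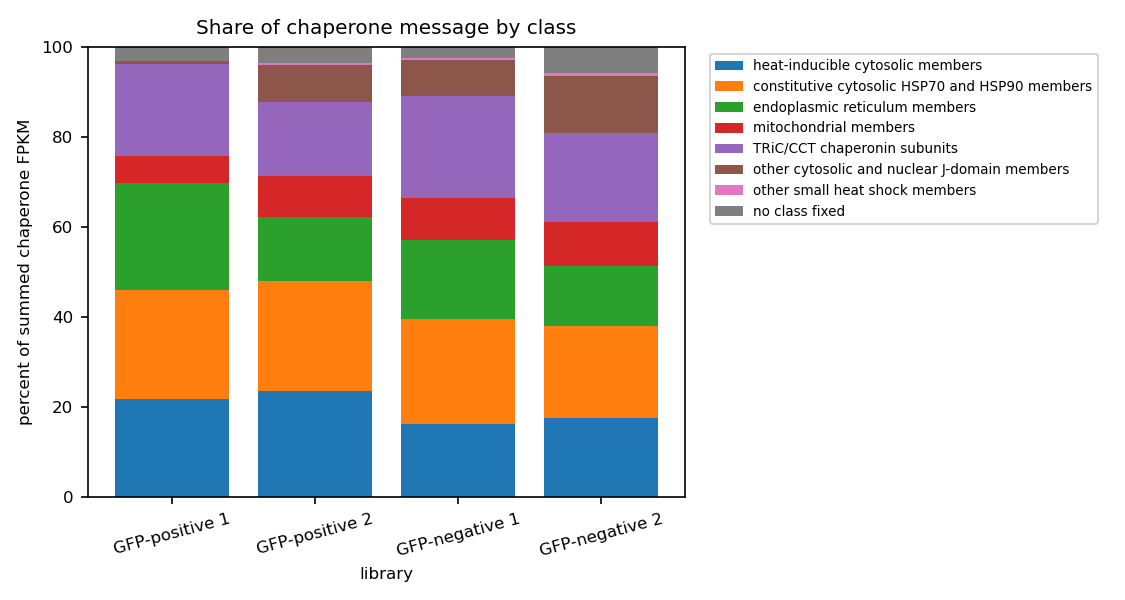
Share of the summed chaperone FPKM taken by each class (stacked bars, percent) in each library. The heat-inducible share is 21.8% and 23.5% in the GFP-positive and 16.2% and 17.4% in the GFP-negative libraries, and the other J-domain share is 0.55% in GFP-positive library 1.

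Among the heat-inducible members, the stress-inducible HSP70 genes were lower in both GFP-negative libraries, and the remaining ones went in various directions. Hspa1a read 317 and 166 FPKM in the GFP-positive and 83.9 and 19.4 FPKM in the GFP-negative libraries. The groups did not overlap, and the counts behind these levels were 54573, 38620, 20891 and 4602. In CPM it read 1454 and 606 against 184 and 69.1, a log2 change of -3.02 ± 1.54 (SE, n = 2 against 2; unadjusted p = 0.049 and adjusted p = 1.0 by edgeR). Without GFP-positive library 1 the log2 change was -2.27. It was below 0 in all 13 alternative analyses, from -9.54 to -2.22, with adjusted p from 0.0917 to 1.0.

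Hspa1b, its near-identical neighbour, read 92.4 and 41.2 FPKM in the GFP-positive and 24.6 and 5.69 FPKM in the GFP-negative libraries. These groups also did not overlap, and the log2 change was -2.95 ± 2.41 (SE; edgeR adjusted p = 1.0), or -2.03 without GFP-positive library 1. Of all 100-base windows of the Hspa1a transcript, 47.1% occur in the Hspa1b transcript, and 49.9% the other way round, so the division of reads between the 2 genes is uncertain. The ratio of Hspa1a to Hspa1b in FPKM was 3.43 and 4.02 against 3.41 and 3.41. How shared reads were divided is not known, so this ratio cannot show whether the 2 genes changed together. Their changes are not taken as 2 separate results. Their positions are chr17:34969190-34972156 for Hspa1a and chr17:34956436-34959238 for Hspa1b.

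A ratio within a library does not depend on the scaling between libraries. Hspa1a and Hspa1b summed to 85.4% and 47.9% of the Hspa8 level in the GFP-positive and to 16.9% and 6.21% in the GFP-negative libraries (FPKM). On the log2 scale these ratios were -0.23, -1.06, -2.56 and -4.01. The groups did not overlap, but with 2 libraries against 2 the smallest 2-sided p of an exact permutation test is 0.33, so no test was made. Immediate early genes are known to be induced by tissue digestion, and their summed level was also lower in both GFP-negative libraries. It was 14618 and 13028 against 6291 and 4754 CPM, or 4029 and 4521 against 3208 and 1657 FPKM. As a share of all FPKM the groups overlapped, at 0.871% and 0.941% against 0.955% and 0.320%. By fitted log2 change 5 lay above 0 and 8 below, and 1 lay above 0 without GFP-positive library 1. Of these 13 genes, 0 were called by edgeR, 3 had an unadjusted p under 0.05 (Junb, Atf3 and Zfp36; 3.1% of all genes) and 8 had both GFP-negative libraries below both GFP-positive ones in CPM (6.63% of all genes). In CPM the summed macrophage markers, the summed erythroid markers and Hspa1a were each highest in GFP-positive library 1. All were next highest in GFP-positive library 2. GFP-negative library 1 held the least of both marker sums, and GFP-negative library 2 the least Hspa1a. The part of the immediate early genes, the macrophage markers or the erythroid markers in the Hspa1a result was not tested.

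**Figure D3:**
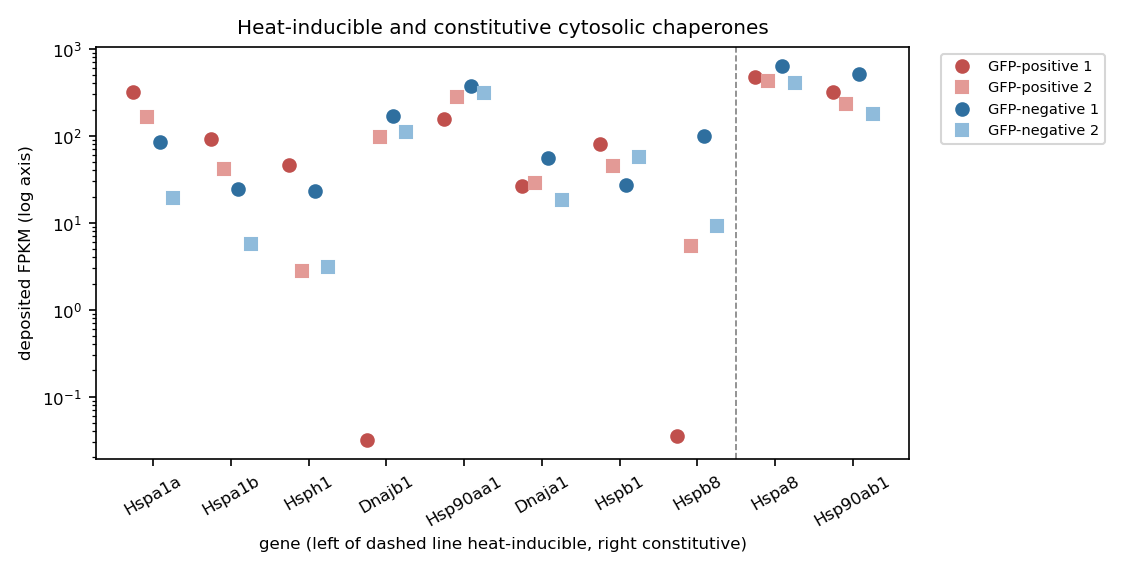
Deposited FPKM (log axis) of heat-inducible members and, right of the dashed line, constitutive Hspa8 and Hsp90ab1, with 1 point per library. Hspa1a and Hspa1b step down from both GFP-positive to both GFP-negative libraries, whereas Dnajb1 and Hspb8 are at 0.032 and 0.035 FPKM in GFP-positive library 1, and Dnajb4 is not drawn.

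The J-domain partner and HSP110 of the same stress response did not share that pattern. Dnajb1, the main heat-induced J-domain co-chaperone of HSP70, read 0.032 and 96.8 FPKM in the GFP-positive and 171 and 110 FPKM in the GFP-negative libraries, with a log2 change of 1.12 ± 1.80. Without GFP-positive library 1 its log2 change was 0.11. Hsph1, an HSP110 that exchanges the nucleotide of HSP70, read 45.9 and 2.80 against 23.0 and 3.08 FPKM, so each group held 1 high and 1 low library. Its log2 change of -1.85 ± 2.21 became 1.57 without GFP-positive library 1.

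Hsp90aa1, the inducible cytosolic HSP90, read 156 and 280 FPKM in the GFP-positive and 372 and 311 FPKM in the GFP-negative libraries. The groups did not overlap in FPKM but did in CPM, where the log2 change was 0.14 ± 1.09. Its ratio to Hsp90ab1, the constitutive form, was 0.493 and 1.21 against 0.726 and 1.74, and the groups overlapped. Dnaja1 (26.6 and 28.5 against 55.6 and 18.2 FPKM) and the small heat shock gene Hspb1 (80.4 and 45.2 against 27.4 and 56.6 FPKM) overlapped between groups too. Dnajb4, a low J-domain gene, read 0 and 0.795 against 4.32 and 2.01 FPKM. Hspb8, the small heat shock partner of Bag3, read 0.035 and 5.41 against 98.8 and 9.09 FPKM, so that its level in GFP-negative library 1 set the mean of that group, and its log2 change was 3.64 ± 3.98, or 1.70 without that library. Over the 9 heat-inducible members the median log2 change was -0.28, with 4 above 0 and 5 below, beside 0.91 for all genes, and -0.10 without GFP-positive library 1.

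The 2 abundant constitutive cytosolic chaperones differed little between the groups. Hspa8 read 479 and 432 FPKM in the GFP-positive and 640 and 403 FPKM in the GFP-negative libraries, which overlapped. In CPM both GFP-negative libraries were lower (2038 and 2087 against 3189 and 2292), with a log2 change of -0.41 ± 0.85 that turned to 0.20 when libraries were scaled by their totals and to 0.16 in the limma fits on FPKM. Hsp90ab1 read 317 and 231 against 512 and 179 FPKM, so by FPKM GFP-negative library 1 was the highest and GFP-negative library 2 the lowest. In CPM it was highest in GFP-positive library 1 instead (1473 and 853 against 1135 and 647). Its log2 change was -0.38 ± 1.16, and it was 0.05 without GFP-positive library 1 and -0.85 without GFP-negative library 1.

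The less abundant HSP70 relatives of the cytosol were sparse in GFP-positive library 1. Hspa4, an HSP110-type exchange factor, read 0 and 5.42 against 22.2 and 3.43 FPKM, and its relative Hspa4l read 0 and 0.959 against 9.53 and 1.64 FPKM. Hspa14, the HSP70 of the ribosome-associated complex, read 0.016 and 21.2 against 33.9 and 37.4 FPKM, and was higher in both GFP-negative libraries by FPKM but not by CPM. Hspa2, best known from the testis, read 0 and 4.81 against 27.2 and 5.42 FPKM. For the class of 6, with 4 above 0 and 2 below, the median log2 change was 1.52, and it was 0.51 without GFP-positive library 1.

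The 2 main ER chaperones were high in library 1 of each group and lower in library 2. Hspa5 (BiP), the ER HSP70, read 452 and 200 FPKM in the GFP-positive and 497 and 126 FPKM in the GFP-negative libraries. Hsp90b1 (GRP94), the ER HSP90, had the same highs and lows, at 165 and 68.6 against 176 and 95.9 FPKM. The log2 changes were -0.87 ± 1.01 for Hspa5 and -0.47 ± 1.41 for Hsp90b1, and without GFP-positive library 1 they were 0.06 and 0.53. The ratio of Hspa5 to Hspa8 was 0.945 and 0.464 against 0.776 and 0.313, and that of Hsp90b1 to Hsp90ab1 was 0.521 and 0.298 against 0.343 and 0.535, so neither separated the groups.

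The ER J-domain genes, which deliver clients to Hspa5 or help remove them, differed from one another in which library was highest. Dnajc3 (P58IPK), whose promoter holds the ER stress element, read 122 and 14.7 against 15.4 and 37.7 FPKM, with a log2 change of -1.87 ± 1.77. Dnajc10, an ER disulfide reductase, read 45.8 and 1.39 against 19.8 and 1.19 FPKM. For both, GFP-positive library 1 was the highest, and without it the log2 changes turned to 0.64 and 2.21. Dnajb9 (ERdj4) went the other way, at 1.70 and 51.7 against 153 and 92.0 FPKM, with no overlap and a log2 change of 1.75 ± 2.14, or 0.80 without GFP-positive library 1. Dnajb11, a soluble Hspa5 partner, read 0 and 51.9 against 47.1 and 54.7 FPKM. Hspa13, Dnajc1, Dnajb12 and Dnajb14 stayed at or under 10.4 FPKM in every library. The class of 10 had a median log2 change of -0.41, with 4 above 0 and 6 below, and of 0.48 without GFP-positive library 1.

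The mitochondrial pair of chaperonin genes that lie head to head did not keep a fixed ratio. Hspd1 (HSP60) read 135 and 42.0 FPKM in the GFP-positive and 209 and 28.0 FPKM in the GFP-negative libraries. Hspe1 (HSP10) read 47.3 and 148 against 121 and 137 FPKM. The ratio of Hspe1 to Hspd1 was 0.349 and 3.52 against 0.579 and 4.91, so it was under 1 in library 1 of each group and above 3 in library 2 of each. The log2 changes between groups were -0.47 ± 1.79 and -0.0049 ± 2.06.

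Hspa9 (mortalin), the mitochondrial HSP70 that pulls proteins through the inner membrane, read 0 and 10.1 against 122 and 8.87 FPKM. GFP-negative library 1 stood far above the other 3, and its log2 change of 3.02 ± 2.64 was 0.78 without that library and 2.01 without GFP-positive library 1. The ratio of Hspd1 to Hspa9 was 4.17 in GFP-positive library 2 and 1.71 and 3.15 in the GFP-negative libraries. Dnaja3 (TID1), a J-domain partner of Hspa9, read 0.018 and 4.64 against 18.0 and 3.87 FPKM. Dnajc19 and Dnajc15, J-domain proteins of the import motor, were highest in GFP-negative library 2, at 51.3 and 38.5 FPKM. Dnajc30 read 0 and 25.2 against 9.12 and 28.7 FPKM, and Dnajc11 read 0 and 1.25 against 3.53 and 2.92 FPKM. Over the 8 members, 6 above 0 and 2 below, the median log2 change was 1.09, and 0.73 without GFP-positive library 1.

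**Figure D4:**
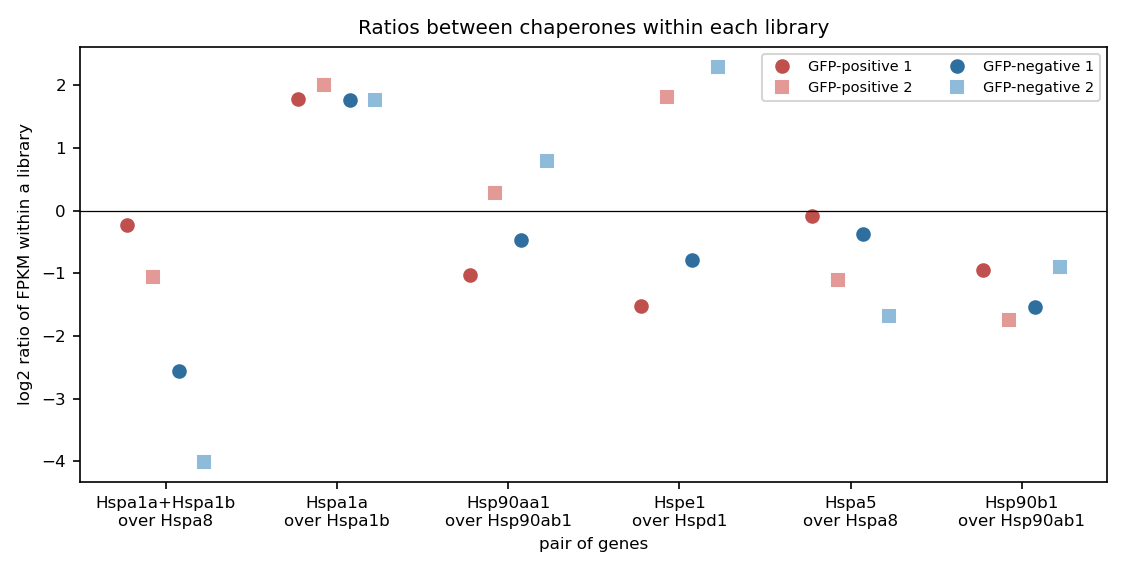
Log2 ratio of FPKM between 2 chaperones within each library, with 1 point per library. The Hspa1a plus Hspa1b to Hspa8 ratio runs from -0.23 to -4.01 with both GFP-negative points lowest, whereas Hspe1 to Hspd1 splits library 1 from library 2 in each group.

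The TRiC/CCT subunits, which assemble in equal numbers into 1 double ring, stood at comparable levels within a library, apart from Cct6a. Excluding Cct6a, the highest subunit exceeded the lowest by 3.36 and 5.41 in the GFP-positive and by 3.25 and 6.51 in the GFP-negative libraries (FPKM ratio). Cct5 was the highest subunit in 3 libraries, at 167 and 132 against 244 and 185 FPKM, and Cct8 was the highest in GFP-negative library 1, at 157 and 110 against 253 and 118 FPKM. Cct4 (61.3 and 55.8 against 93.9 and 103 FPKM) and Cct7 (49.6 and 60.2 against 211 and 76.5 FPKM), like Cct5, had higher FPKM in both GFP-negative libraries, and of these Cct7 did so in CPM as well. Tcp1, Cct2 and Cct3 each had their high levels in library 1 of each group, Tcp1 at 95.5 and 37.2 against 117 and 39.6 FPKM.

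Cct6a departed from its partners in 1 library. It read 0.047 FPKM in GFP-positive library 1, where the other 7 subunits had 49.6 FPKM or more, and 21.7 FPKM in GFP-positive library 2 against 117 and 27.0 FPKM in the GFP-negative libraries. Its log2 change was 2.15 ± 2.48, and it was 1.14 without GFP-positive library 1 and 1.27 without GFP-negative library 1. Over the 8 subunits the median log2 change was -0.13, with 3 above 0 and 5 below. Without GFP-positive library 1 it was 0.59, with all 8 above 0, beside a median of 0.27 and 9498 of 16301 above 0 for all genes.

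The other cytosolic and nuclear J-domain genes were at or near 0 in GFP-positive library 1. In it 10 of the 17 were at 0 counts and 16 were under 1 FPKM, the exception being Dnajc21 at 17.3 FPKM. Dnajc9, a J-domain histone chaperone, read 0.028 and 68.3 against 113 and 171 FPKM, and Dnajc8, a splicing-associated member, read 0 and 45.6 against 53.3 and 66.9 FPKM. Dnajb6, which holds back aggregation, read 0.045 and 31.2 against 44.8 and 53.7 FPKM. All 3 were higher in both GFP-negative libraries by FPKM and overlapped by CPM. By FPKM 6 of the 17 were higher in both, these 3 among them, where 31.6% of all genes were. The 3 log2 changes of 1.78, 1.09 and 1.34 became 0.77, 0.09 and 0.34 without GFP-positive library 1. Dnaja2, an HSP70 partner that acts in refolding, read 0.799 and 25.1 against 90.5 and 21.5 FPKM. Dnajc27, with a log2 change of 6.01 ± 5.39, rested on 3.57 FPKM in GFP-negative library 1 and at most 0.032 FPKM elsewhere, and its log2 change was -5.56 without that library. Of the 17 fitted changes 15 were above 0, with a median of 1.34. Without GFP-positive library 1 the median was 0.34, with 12 above 0.

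The remaining genes with an Hspb name, grouped by that name alone, stood at 14.9 FPKM or less in every library. Hspb6 read 0 and 3.73 against 11.2 and 5.41 FPKM, Hspb11 read 0.840 and 7.45 against 14.9 and 12.2 FPKM, and Hspb2 was at most 0.348 FPKM in the GFP-positive libraries and reached 5.53 FPKM in GFP-negative library 2. All 3 were higher in both GFP-negative libraries, where 25.2% of all genes were by CPM and 31.6% by FPKM, and none passed the test. Dnajc12, a co-chaperone of aromatic amino acid hydroxylases, read 0 and 8.15 against 53.9 and 18.5 FPKM with a log2 change of 2.63 ± 3.03, or 1.62 without GFP-positive library 1. Dnajc4 read 69.5 and 24.7 against 4.29 and 43.0 FPKM, and Dnajc16 reached 3.18 FPKM in GFP-negative library 1 and 0.090 FPKM or less elsewhere. The copy Dnajc19-ps was highest in GFP-negative library 2, at 69.3 FPKM, and the 4 libraries stood in the same order for it as for Dnajc19. Of the 100-base windows of Dnajc19-ps, 37.7% occur in Dnajc19, so reads between them may be shared and their values are uncertain.

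**Figure D5:**
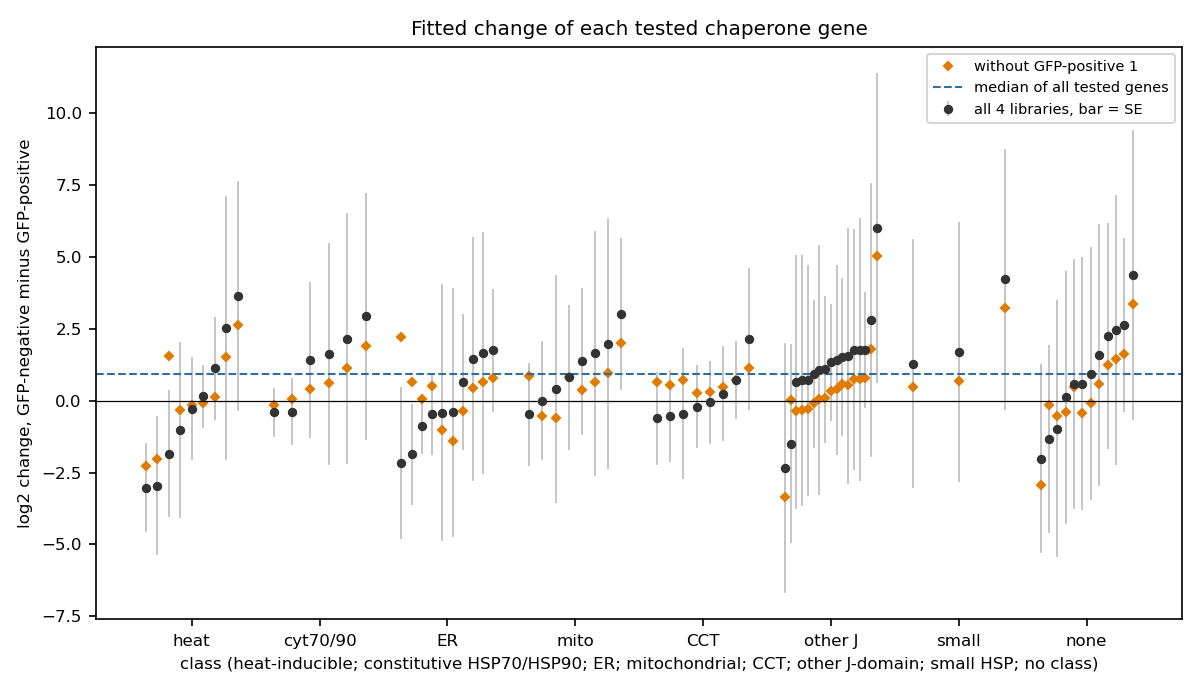
Fitted log2 change (GFP-negative minus GFP-positive) of each of the 73 tested members by class, with the edgeR standard error as the bar and the value without GFP-positive library 1 as a diamond. Hspa1a and Hspa1b at the left of the heat class stay below 0 either way, while most J-domain genes move towards 0.

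Over the main analysis and every alternative run, 5 members stayed below 0 (Dnajc4, Hspa1a, Hspa1b, Hspb1 and Hspd1-ps3, the last named after its values were seen) and 25 stayed above 0. The 25 were at or near 0 counts in the GFP-positive library that lacked counts for most symbols. In the main fit 68.1% of all genes lay above 0, and the share of all genes keeping a sign was not computed. All runs reuse the same libraries, so a kept sign is not an independent repeat. Of the 53 members described by rule, 30 had another sign in some alternative.

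Partners of the chaperones outside the 3 families were not called either. Among 23 co-chaperones and heat shock factors 0 were called by edgeR (0 at an unadjusted p under 0.05), with 13 log2 changes above 0 and 10 below and a median of 0.98. That median was 0.52 without GFP-positive library 1 and -0.55 over the 14 with counts in all 4 libraries. Fkbp4, an HSP90-bound immunophilin, read 0.073 and 59.0 against 336 and 51.4 FPKM, and Chordc1, an HSP90 co-chaperone, read 45.2 and 5.09 against 16.5 and 4.65 FPKM. Among 9 prefoldin and CCT partner genes 0 were called, and 7 lay above 0 and 2 below, with a median of 0.97, or 0.66 without GFP-positive library 1. Vbp1, a prefoldin subunit, read 0.129 and 51.5 against 100.1 and 106 FPKM, and Txndc9, which binds CCT, read 0.007 and 8.51 against 7.71 and 24.6 FPKM.

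Of 22 other ER folding and unfolded protein response genes, 0 were called, 13 lay above 0 and 9 below, and the median log2 change was 0.27. Without GFP-positive library 1 that median was -0.0091 with 10 above 0, and over the 15 with counts in all 4 libraries it was -0.93. Both GFP-negative libraries were lower for 7 genes in CPM (6.63% of all genes) and for 3 in FPKM (4.53% of all genes). In CPM these included Sdf2l1, an Hspa5 partner, at 461 and 107 against 39.7 and 40.5 CPM. Its log2 change was -2.83 ± 2.35, and that of Pdia3, an oxidoreductase of glycoprotein folding, was -1.29 ± 1.23, and without GFP-positive library 1 they were -1.43 and -0.41. Of 11 mitochondrial folding and proteolysis genes 0 were called, with 8 above 0 and 3 below and a median of 0.75, or 0.22 with 6 above 0 without GFP-positive library 1. Afg3l2, a subunit of the inner membrane protease, read 0 and 1.35 against 11.6 and 2.77 FPKM, and Clpx, the unfoldase of the matrix protease, read 0.057 and 7.94 against 34.8 and 9.81 FPKM.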

How the data were processed

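RNA from 2 GFP-positive and 2 GFP-negative libraries was made into full-length cDNA from very little input by oligo(dT) priming with template switching, amplified and sequenced in pairs, per the labels' protocols. The kit as described does not mark strand and no molecular identifiers are named, so intervals from counting alone would be too narrow. The authors deposited whole-number counts and FPKM values per symbol in 1 table, per the file headers. Cutadapt 1.9, HISAT2 2.2.1, StringTie 2.1.6, DESeq2, edgeR and mm10 are named in the submitters' processing notes, and the counting of shared reads is not given in the sources used here.

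Counts were fitted in R 4.3.3 with edgeR 4.0.16 (filterByExpr with a minimum count of 10, TMM scaling, glmQLFit with group as the one term, glmQLFTest, Benjamini-Hochberg over 16301 genes, threshold 0.05). Standard errors were taken from the log2 change and its F statistic. CPM are counts scaled to the TMM-adjusted library size, and FPKM is used wherever genes are compared. Alternatives used DESeq2 1.42.0, limma 3.58.1 (pseudocounts 1 and 0.1), other scalings and filters, a replicate block and each library left out. The fit was run on simulated counts whose spread was far below the common biological coefficient of variation of 1.92 found here. No simulated library lacked counts as GFP-positive library 1 did, so that run cannot show how the fit behaves on these data. Gene positions are from GENCODE M21, which matched 72 members, and promoters from RefSeq on GRCm38.p6.

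The members, classes, pathway lists and marker lists (macrophage, antibody-secreting B cell, erythroid, hepatocyte, T and NK lymphocyte, endothelial, alveolar type 2, ciliated cell, neuroendocrine tumour cell and immediate early genes) were chosen with earlier results of these data known. Members named with values were all of the 5 main classes, the 4 with the highest mean FPKM in each other class, the 5 of the other classes with the smallest unadjusted p, and 2 genes per pathway list. Dnajc2, Dnajc7, Dnajc21, Hspd1-ps3, Epcam, Junb, Atf3 and Zfp36 were named after their values were seen. Of the members this rule takes, 1 is not reported here, though it stayed in every fit and count of members.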

Additional observations from a re-analysis of the deposited data

How the results depend on the processing

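Each group has 2 libraries amplified from little RNA, and GFP-positive library 1 lacks counts for most symbols, so changes of the size given here could not be separated from library differences. Depth was similar across libraries, and counting error alone limits only members near 3 counts. GFP-positive library 1 held counts for 6063 of 17746 symbols, and 12 members had 1 to 20 counts in it. Low values in that library are therefore uncertain beyond counting error.

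The count of members called was 0 in the main analysis and in 12 of 13 alternatives, and leaving out each library gave 0 to 38 calls, the 38 arising without GFP-positive library 2. The median log2 change of members was 0.82, and 0.47 to 8.78 when each library was left out. With the replicate number as a block it was 3.11, beside 3.92 for all genes, and 0 members were called. In that replicate block fit Dnajb14 turned to 4.70 and Hspe1 to 0.073. The labels do not say that a number is a shared animal or day, so the numbers are not taken as pairs. Deviations of same-numbered libraries from their group means gave r = -0.073. With 2 libraries in each group both numbers give this same value by construction. It therefore cannot show whether the libraries are paired, and no further check was made.

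Other scalings moved the median of all genes from 0.91 to 1.12 with DESeq2 size factors, to 0.43 by upper quartile and to 1.33 by library totals. The cause of the sign changes below was not tested. With DESeq2 size factors, and likewise in DESeq2's Wald test, Hspe1 was 0.11 and Cct5 0.030. With genes counted in all 4 libraries Hspe1 was 0.067 and Cct5 0.012. With upper quartile scaling the log2 changes were Hsp90aa1 -5.52, Dnajb9 -0.79, Dnajc19 -5.05, Cct4 -5.89, Cct7 -5.30, Dnaja2 -1.05, Hspb11 -2.71 and Dnajc19-ps -5.17. With library totals they were Dnaja1 0.42, Hspa8 0.20, Hsp90ab1 0.34, Hsp90b1 0.23, Dnajb12 0.15, Hspd1 0.43, Hspe1 0.39, Tcp1 0.25, Cct2 0.30, Cct3 0.18, Cct5 0.53 and Cct8 0.47.

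In limma on log2(FPKM + 1) they were Dnaja1 0.21, Hspa8 0.16, Hsp90ab1 0.16, Hsp90b1 0.28, Dnajb12 0.14, Dnajb14 0.18, Hspd1 0.026, Hspe1 0.62, Tcp1 0.19, Cct2 0.33, Cct3 0.16, Cct5 0.52 and Cct8 0.39. With a pseudocount of 0.1 the same genes gave 0.21, 0.16, 0.16, 0.28, 0.24, 1.18, 0.021, 0.62, 0.19, 0.34, 0.17, 0.52 and 0.39.

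With each library left out in turn, the log2 change ranged as follows among genes whose sign turned: Hsph1 -3.33 to 1.57, Dnaja1 -0.80 to 0.17, Hsp90aa1 -0.10 to 0.42, Hsp90ab1 -0.85 to 0.052, Hspa5 -1.64 to 0.060, Hsp90b1 -1.06 to 0.53, Dnajb11 -0.35 to 16.53, Dnajb12 -1.01 to 0.55, Dnajb14 -1.41 to 12.91, Dnajc3 -3.08 to 0.64, Dnajc10 -4.66 to 2.21, Hspd1 -1.96 to 0.85, Hspe1 -0.52 to 0.80, Dnajc15 -1.15 to 10.58, Dnajc19 -0.86 to 1.58, Dnajc30 -1.22 to 14.28, Tcp1 -1.14 to 0.53, Cct2 -1.09 to 0.70, Cct3 -1.28 to 0.65, Cct4 -0.17 to 0.59, Cct5 -0.36 to 0.30, Cct8 -0.57 to 0.27, Dnajc19-ps -0.92 to 1.31, Dnajc27 -5.56 to 11.93 and Dnajc16 -7.38 to 12.12. Where 1 library is left in a group, it is assumed to vary like the other group. Without the filter on low counts no named gene changed sign.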
